A study of Saccharomyces cerevisiae with 20 samples.

Results

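D273-10B and CEN.PK2 are haploid laboratory strains of budding yeast, the former best known from studies of mitochondria and the latter from studies of physiology and fermentation. All 4 libraries labelled D273-10B were set against all 4 labelled CEN.PK2, which is 8 of the 20 libraries of a study of 5 strains, and every gene of the count table was used. By its genotype label D273-10B is of mating type alpha and mal. The label of CEN.PK2 gives mating type a, mutant alleles of HIS3, LEU2, URA3 and TRP1, the maltose allele MAL2-8c, and SUC2. Neither strain was treated, and both were grown in synthetic complete medium with glucose to the early exponential phase. Mating type, nutritional markers and the rest of the genome differ together between the strains, so their contributions cannot be told apart. The labels do not say that replicates were separate cultures, so p-values measure the spread between these libraries, which may be technical.

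In a haploid cell the mating-type locus sets which of 2 cell types forms. The alpha1 protein turns on alpha-specific genes and the alpha2 protein turns off a-specific genes, while genes of the pheromone pathway are used by both types. In glucose medium yeast ferments sugar to ethanol through alcohol dehydrogenase, and the genes for making amino acids and nucleotides follow the supply of their end products.

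Total counts were 6143878 to 12103234 in the D273-10B libraries and 1311322 to 19722480 in those of CEN.PK2, where replicate 2 was the smallest. Levels are given as CPM, a gene's count scaled to its library's total count, always in the order of replicates 1 to 4, and D273-10B is given first. D273-10B replicate 1 stood apart. Its log2 CPM rose by 0.43 per doubling of gene length relative to the average library, against -0.23 to 0.06 in the other 3 D273-10B libraries and -0.34 to 0.11 in CEN.PK2. Its correlation with the other D273-10B libraries (Pearson's r of log2 CPM across genes, which are not independent) was 0.78 to 0.87, while theirs with each other was 0.91 to 0.94. CEN.PK2 replicate 4 also stood off, at 0.83 to 0.92 with its strain, where the others had 0.92 to 0.97 with each other. Its length slope of -0.34 was the lowest of the 8. CEN.PK2 replicate 4 was also the only one of the 8 with a library number starting with 74. D273-10B replicate 1 and CEN.PK2 replicate 1 had numbers starting with 66, and the rest had numbers starting with 69. Libraries did not always correlate best within their strain, since D273-10B replicate 1 was at 0.92 with CEN.PK2 replicate 2. The 12 libraries of the other strains (BY4741, RM11-1a and W303, all of mating type a by their labels) share the estimate of the spread with the 8, and their levels are given as a reference.

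Of 6119 genes tested, 343 (5.61%) passed edgeR's quasi-likelihood test with Benjamini-Hochberg adjustment at 0.05. Levels were higher in D273-10B for 180 of them (2.94% of all tested) and lower for 163 (2.66%), and 331 of the 343 differed at least 2-fold. Without D273-10B replicate 1 the same test called 763 of 6200 genes (12.3%), 467 higher (7.53%) and 296 lower (4.77%). All 343 genes kept their sign and 323 of them their call. In 212 of the 343 the 4 libraries of one strain did not overlap those of the other (96 higher, 116 lower), against 464 genes (7.58%) among all tested. The median log2 fold change over all genes tested was 0.11, and 0.04 without that library. Calls were fewer when other libraries were left out, 192 without CEN.PK2 replicate 1 and 205 without D273-10B replicate 2, and only 103 when the 2 strains were fitted alone. They were more, 542, without D273-10B replicate 4.

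**Figure D1:**
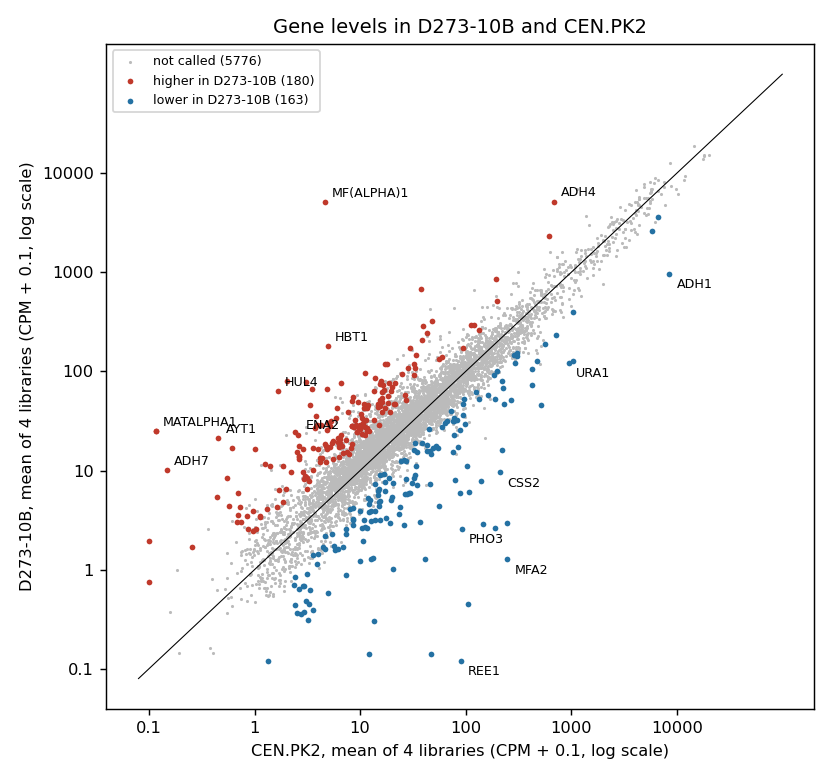
Mean level of each tested gene in D273-10B (vertical axis) against CEN.PK2 (horizontal axis), in CPM plus 0.1 on log scales, with 4 libraries each. The 180 genes called higher in D273-10B are red, the 163 called lower are blue, the others grey, and the line marks equal levels. MF(ALPHA)1 stood highest above the line, and REE1 farthest below it.

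The mating-type genes separated the strains as their labels give them. Of 8 a-specific genes 7 were lower in D273-10B, against 2.66% of all genes, and all 9 alpha-specific genes were higher, against 2.94%. The 9 include MATALPHA1 and MATALPHA2 and also their copies at HML, whose reads cannot be separated from theirs. The upstream regions of the a-specific genes hold the core of the half-site that alpha2 recognises, CATGTAA. It was found on either strand within 500 bases before the start codon of 7 of the 8 a-specific genes, 1 of the 9 alpha-specific genes and 376 of 6000 protein-coding genes (6.27%). One window of 30 bases around it is shown for each of 6 a-specific genes, 5′ to 3′ on the gene's strand, from the RefSeq R64 genome, with the core in capitals in either orientation.
STE2, chrVI:82340-82369: gttttttcaacCATGTAAatttcctaattg
MFA1, chrIV:1384955-1384984: aaaaaggaaatTTACATGttaaatgaaacc
MFA2, chrXIV:352176-352205: attcgggaaatTTACATGacatggatgcca
STE6, chrXI:46489-46518: attttttttgcCATGTAAttacctaatagg
AGA2, chrVII:437113-437142: attactgaaacCATGTAAtttccgaatacg
ASG7, chrX:101893-101922: catcgggaaatTTACATGttaactgcaatg

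Genes for the a-factor pheromone were nearly silent in D273-10B. MFA1 was at 0, 0.578, 0.347 and 0.488 CPM in D273-10B and at 131, 60.2, 54.4 and 178 CPM in CEN.PK2. MFA2 was at 0.148, 1.07, 1.65 and 1.79 CPM against 219, 206, 139 and 432 CPM. The groups lay far apart for both, with log2 fold changes of -8.22 (SE 0.75, adjusted p 3.39e-07 by edgeR) and -7.75 (SE 0.70, adjusted p 3.23e-07 by edgeR). STE2, the alpha-factor receptor, was at 5.17, 1.65, 1.47 and 3.09 CPM in D273-10B and at 259, 483, 204 and 46.2 CPM in CEN.PK2. Its lowest CEN.PK2 library, replicate 4, was still above every D273-10B library, and the log2 fold change was -6.39 (SE 0.49, adjusted p 3.44e-08 by edgeR). AGA2, a subunit of a-agglutinin, fell by 5.01 on the log2 scale (SE 0.62). STE6, the a-factor exporter, fell by 2.41 (SE 0.22), and ASG7 by 2.18 (SE 0.38). HMRA1, which encodes the a1 protein, had at most 2 counts in any D273-10B library and 36.6 to 69.3 CPM in CEN.PK2. It was at least 130-fold lower, reckoned against a floor of 3 counts. The annotation gives alpha genes at the mating-type locus, so counts assigned to HMRA1 do not show which locus they came from.

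BAR1, the protease that degrades alpha-factor, was the a-specific gene that did not pass the test. It was at 3.84, 50.6, 15 and 2.77 CPM in D273-10B and at 30.8, 88.5, 26.9 and 16 CPM in CEN.PK2. Replicate 2 of D273-10B stood within the CEN.PK2 range and the other 3 below it. The log2 fold change was -0.93 (SE 0.62, adjusted p 0.434 by edgeR), and BAR1 was called lower once that library was left out. BAR1 holds 2 copies of the half-site core.

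The alpha-factor genes showed the reverse. MF(ALPHA)1 was at 2302, 4476, 6619 and 7027 CPM in D273-10B and at 4.61, 4.58, 3.80 and 5.09 CPM in CEN.PK2, a log2 fold change of 10.17 (SE 0.60, adjusted p 9.71e-10 by edgeR). The lesser pheromone gene MF(ALPHA)2 was at 72.9, 88.0, 66.5 and 90.7 CPM against 1.72, 3.81, 0.685 and 1.45 CPM, a log2 fold change of 5.65 (SE 0.46, adjusted p 7.62e-08 by edgeR). MF(ALPHA)1 was lowest in D273-10B replicate 1 and MF(ALPHA)2 was alike in all 4 D273-10B libraries. STE3, the a-factor receptor, was at 157, 49.2, 19.2 and 40.4 CPM against 3.95, 8.39, 4.17 and 2.33 CPM. SAG1, the alpha-agglutinin, was at 129, 25.4, 11.9 and 18.2 CPM against 2.54, 5.34, 2.86 and 2.33 CPM. For these surface proteins the groups did not overlap, and replicate 1 was the highest of the D273-10B libraries. Their log2 fold changes were 3.78 (SE 0.57) and 3.66 (SE 0.51), and 3.28 and 2.77 without replicate 1. AFB1, which blocks a-factor, was higher by 3.01 (SE 0.30).

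The regulators themselves followed. MATALPHA1 and HMLALPHA1 share all of their sequence, so their reads cannot be assigned to one locus. MATALPHA1 was at 22.3, 23.4, 30.2 and 24.1 CPM in D273-10B, at least 35.5-fold above CEN.PK2, where no library held more than 1 count. MATALPHA2, whose sequence also occurs whole at HML and which overlaps BUD5, was at 155, 219, 409 and 372 CPM against 34.3, 31.3, 34.8 and 56.9 CPM. Both strains had counts assigned to MATALPHA2, and their level was higher in D273-10B by 2.86 on the log2 scale (SE 0.42, adjusted p 0.000225 by edgeR). Because of the overlap and the shared sequence, the counts in CEN.PK2 do not show that alpha2 itself was expressed there.

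**Figure D2:**
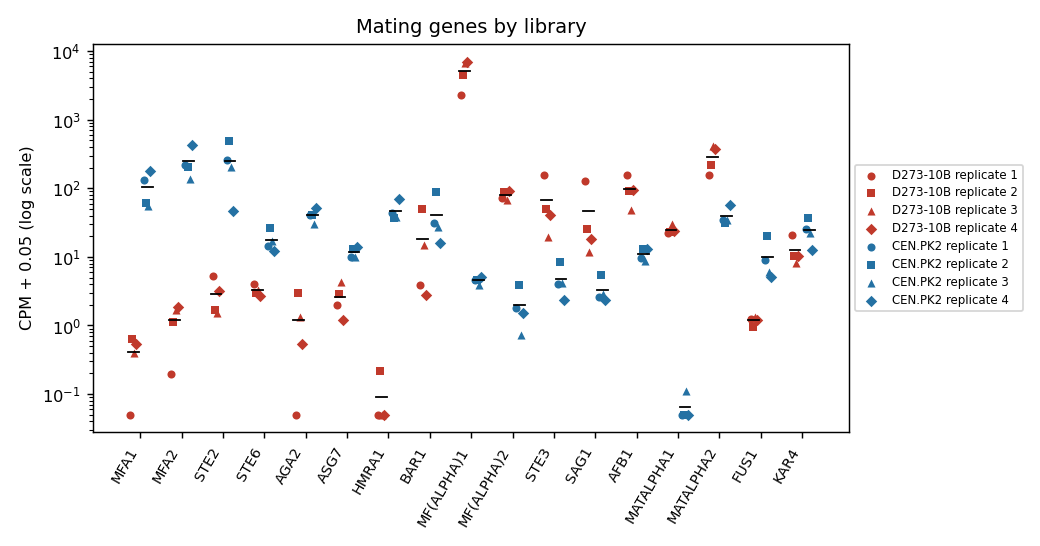
CPM plus 0.05 on a log scale (vertical axis) of mating genes (horizontal axis) in each of the 4 D273-10B libraries (red) and 4 CEN.PK2 libraries (blue), with marker shape for the replicate and a bar for the mean. MFA1 to HMRA1 were lower and MF(ALPHA)1 to MATALPHA2 higher in D273-10B, and only BAR1 and KAR4 overlapped between the strains.

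Some genes used by both cell types were called. Of 34 tested genes of the shared pheromone response, 2 were higher and 2 lower in D273-10B, against 2.94% higher and 2.66% lower among all genes, and their median log2 fold change was 0.09, close to the 0.11 of all genes. FUS1, a membrane protein of cell fusion, was at 1.18, 0.909, 1.3 and 1.14 CPM in D273-10B and at 9.08, 19.8, 5.91 and 4.96 CPM in CEN.PK2. Every CEN.PK2 library lay above every D273-10B library. The fall was 2.93 on the log2 scale (SE 0.35, adjusted p 1.18e-05 by edgeR), and it held in each fit that left out 1 of the 8 libraries. The 12 libraries of the other strains, which the labels give as mating type a, had 5.78 to 24.3 CPM. FUS1 is shown because its upstream region holds 2 copies of the pheromone response element TGAAACA, the site of Ste12, here in capitals. On either strand, 56 of the 6000 upstream regions (0.933%) hold 2 or more copies and 721 (12%) hold at least 1.
FUS1, chrIII:71605-71634: tggtgcgatgaTGAAACAaacatgaaacgt
FUS1, chrIII:71632-71661: cgtctgtaattTGAAACAaataacgtaatt

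KAR4, a transcription factor of the same pathway, was lower by 0.99 (SE 0.24, adjusted p 0.0187 by edgeR), with overlapping libraries and a call that was lost without CEN.PK2 replicate 1 or without D273-10B replicate 2 or 3. The 2 genes called higher were PRM2 and the kinase gene STE20. Both rested on D273-10B replicate 2, alone for PRM2 and with replicate 3 for STE20. Genes for the receptor-coupled G protein, the kinase cascade and Ste12 itself (GPA1, STE4, STE18, STE11, STE7, FUS3, STE12) did not pass the test, at log2 fold changes from 0.00 to 0.81.

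Markers of other cell states were also examined. RME1 and STE4, which diploid cells repress, had counts in all 8 libraries. Of 12 tested genes of meiosis and sporulation, DMC1 was lower (log2 fold change -2.07, SE 0.37) and RED1 higher, the latter through D273-10B replicate 2. The summed level of that list was 65.8 to 331 CPM in D273-10B and 85.4 to 158 CPM in CEN.PK2, highest in D273-10B replicates 2 and 3. Genes of mitochondrial DNA had counts in every library, at a summed 107 to 348 CPM and 70.9 to 160 CPM.

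The genes of the genotype labels showed few differences. HIS3, LEU2, URA3 and TRP1, mutated in CEN.PK2 by its label, all had counts there. URA3 was at 124, 169, 179 and 251 CPM in D273-10B and at 494, 468, 315 and 803 CPM in CEN.PK2. The groups did not overlap, but the log2 fold change of -1.56 (SE 0.70) did not pass the test (adjusted p 0.198 by edgeR). TRP1 was at 49.7, 42.7, 43.6 and 61.7 CPM against 27.0, 31.3, 23.2 and 26.2 CPM. It also did not overlap, and it fell just short of the threshold at a log2 fold change of 0.88 (SE 0.26, adjusted p 0.0502 by edgeR; 0.0144 without D273-10B replicate 1). HIS3 had a log2 fold change of 1.22 (adjusted p 0.132 by edgeR; 0.00855 without that library), LEU2 of -1.01 (0.129) and SUC2 of -0.44 (0.728).

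Among the maltose genes, the maltase genes MAL12 and MAL32 were lower in D273-10B. MAL12 was at 5.47, 5.95, 7.37 and 5.53 CPM in D273-10B and at 14.3, 21.4, 15.1 and 7.86 CPM in CEN.PK2, without overlap. The log2 fold change was -1.17 (SE 0.30, adjusted p 0.0235 by edgeR), and -1.11 (SE 0.30, adjusted p 0.0311 by edgeR) for MAL32. Of the 75-base windows of MAL12 and MAL32, 74.5% and 74.9% also occur elsewhere in the genome, so reads of the pair cannot be separated. The MAL12 call was lost without CEN.PK2 replicate 1, 2 or 3 or D273-10B replicate 2, and the MAL32 call also without D273-10B replicate 1. The permease genes MAL11 and MAL31 and the activator genes MAL13 and MAL33 did not pass the test, at log2 fold changes of -0.54, 0.25, 0.83 and -1.02.

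The alcohol dehydrogenase genes were used in a different proportion. ADH1, the main enzyme that makes ethanol, was at 2275, 793, 225 and 574 CPM in D273-10B and at 9677, 10101, 6472 and 7682 CPM in CEN.PK2. ADH4, a zinc-regulated enzyme of another family, was at 7822, 5133, 2984 and 4680 CPM against 503, 937, 1294 and 10.6 CPM. For neither gene did the strains overlap, which was a condition of the rule for the largest changes that named both. CEN.PK2 replicate 4 had the lowest ADH4. ADH1 fell by 3.34 on the log2 scale (SE 0.44, adjusted p 6.76e-05 by edgeR), and the call held in every alternative analysis. ADH4 rose by 2.94 (SE 0.72, adjusted p 0.0188 by edgeR), a call lost without CEN.PK2 replicate 1.

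Per kilobase of exon, the level of ADH4 was 3.13, 5.90, 12.1 and 7.43 times that of ADH1 in the D273-10B libraries. In CEN.PK2 it was ADH1 that was higher, 21.1, 11.8, 5.49 and 794 times the level of ADH4. The order of the 2 genes was thus opposite in the 2 strains, in all 8 libraries. In the 12 libraries of the other strains ADH1 was at 3038 to 11092 CPM and ADH4 at 435 to 2919 CPM, so D273-10B lay outside their range on both. ADH2, the enzyme that oxidises ethanol, was at 304, 111, 22.1 and 77.3 CPM against 1160, 1244, 832 and 930 CPM. It was lower by 3.23 (SE 0.50), but 11.8% of its 75-base windows occur at a second locus, as do those of ADH1. Reads of ADH1 counted to ADH2 cannot be told apart from its own. Of 38 tested genes of glycolysis and ethanol, 3 were lower (ADH1, ADH2 and ADH3) and 3 higher (ADH4, ADH7 and HXK1), against 2.66% and 2.94% of all genes, and the median log2 fold change was -0.06. ADH3, the mitochondrial enzyme, fell by 1.46 (SE 0.34), and HXK1, a hexokinase, rose by 2.68 (SE 0.60). Both were named after their values were seen. Without D273-10B replicate 1 the lower calls were 8, against 4.77% of all genes.

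**Figure D3:**
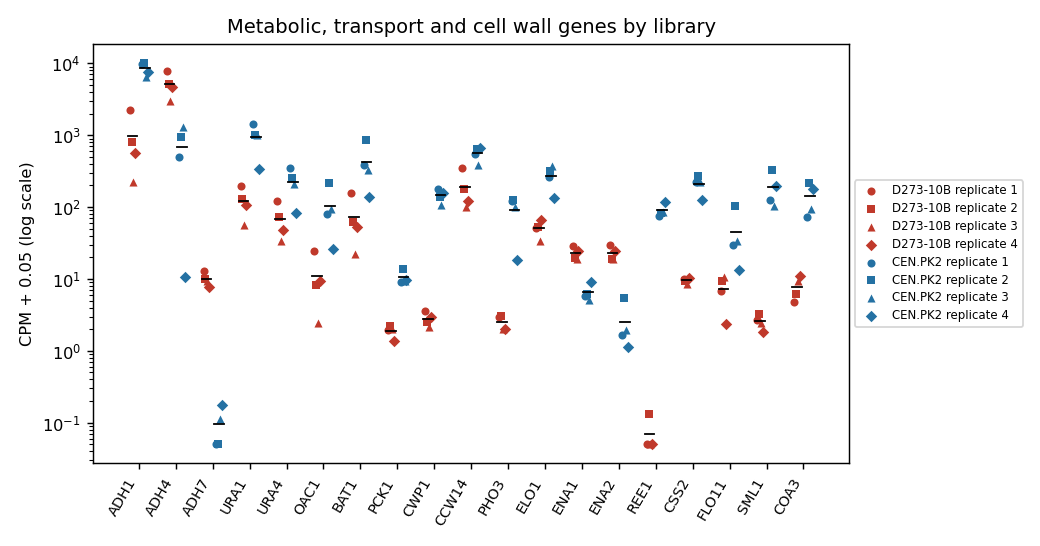
CPM plus 0.05 on a log scale (vertical axis) of metabolic, transport, cell wall and strain-marking genes (horizontal axis) in each D273-10B library (red) and CEN.PK2 library (blue), with marker shape for the replicate and a bar for the mean of 4. ADH1 and ADH4 changed places between the strains, and REE1 was at or near the bottom of the scale in all D273-10B libraries.

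Single genes of pyrimidine and branched-chain amino acid synthesis were lower. URA1, which encodes dihydroorotate dehydrogenase, was at 199, 128, 56.9 and 107 CPM in D273-10B and at 1451, 1002, 1007 and 338 CPM in CEN.PK2. URA4, dihydroorotase, was at 121, 72.7, 33.9 and 47.7 CPM against 356, 255, 213 and 82.8 CPM. URA1 did not overlap between the strains, and URA4 overlapped only through CEN.PK2 replicate 4. The log2 fold changes were -2.98 (SE 0.48, adjusted p 0.000592 by edgeR) and -1.77 (SE 0.35, adjusted p 0.00343 by edgeR). The URA1 call held in every alternative analysis. These were the only 2 calls among 12 genes of uracil synthesis and uptake (5.61% of all genes were called), and URA2, URA5 and the activator gene PPR1 were at log2 fold changes of 0.07, -0.30 and -0.12.

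Of 14 genes of leucine, isoleucine and valine synthesis, 3 were lower and none higher, against 2.66% of all genes lower. Without D273-10B replicate 1, 5 were lower, against 4.77% of all genes. The median log2 fold change of the 14 was -0.68, and 3 had a positive one. OAC1, a mitochondrial carrier that exports a leucine precursor, was at 24.2, 8.18, 2.43 and 9.44 CPM in D273-10B and at 79.3, 215, 95.0 and 26.3 CPM in CEN.PK2, without overlap. Its log2 fold change was -3.23 (SE 0.56, adjusted p 0.00129 by edgeR). BAT1, the mitochondrial branched-chain aminotransferase, was at 155, 61.5, 22.3 and 52.4 CPM against 383, 852, 328 and 139 CPM. Only D273-10B replicate 1 reached the lowest CEN.PK2 library, and the log2 fold change was -2.57 (SE 0.43, adjusted p 0.000795 by edgeR). ILV6, the regulatory subunit of acetolactate synthase, was lower by 1.57 on the log2 scale (SE 0.35, adjusted p 0.0102 by edgeR).

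Calls among purine genes were in the other direction. Of 19 purine genes 3 were higher, against 2.94% of all genes, ADE17 by 2.19 (SE 0.63), ADE1 by 1.48 (SE 0.38) and ADE6 by 1.20 (SE 0.29) on the log2 scale, and none was lower, though 1 was lower without D273-10B replicate 1. The median log2 fold change of the list was 0.56 and 15 of 19 were positive. ADE1 was at 389, 498, 509 and 654 CPM in D273-10B and at 306, 210, 191 and 81.1 CPM in CEN.PK2. In this gene of the adenine pathway the libraries did not overlap, but leaving out any of 6 of the 8 libraries ended its call. The ADE17 call (adjusted p 0.0464 by edgeR) was lost in 22 of 35 alternatives, and without D273-10B replicate 1 it stood at an adjusted p 0.0566 by edgeR.

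Single genes differed in other biosynthetic groups. HIS5, histidinol-phosphate aminotransferase, was at 66.5, 60.5, 15.9 and 27.0 CPM in D273-10B and at 2.48, 14.5, 3.74 and 3.21 CPM in CEN.PK2, a rise of 3.04 (SE 0.76, adjusted p 0.0209 by edgeR). HIS2, another enzyme of that pathway, fell by 1.15 (SE 0.27). ARO1, which carries several steps of aromatic amino acid synthesis, rose by 1.11 (SE 0.24). In 31 genes under nitrogen catabolite control, the activator gene GAT1 fell by 2.65 (SE 0.42), the allantoin genes DAL1 and DAL4 by 1.83 and 1.76, and proline oxidase, PUT1, by 1.58, with none higher. Of the 31, 4 were thus lower, against 2.66% of all genes lower and 2.94% higher, and the median of the list was 0.13. Without D273-10B replicate 1, 2 were higher and 5 lower, against 7.53% and 4.77% of all genes. Lysine synthesis (10 genes), ergosterol synthesis (30), mitochondrial import (35) and biotin (6) held no call, and methionine and sulfate genes (29) held none either, against 5.61% of all genes. Without D273-10B replicate 1, ergosterol synthesis held 2 higher and 2 lower, mitochondrial import 2 higher and lysine synthesis 1 higher. Methionine and sulfate genes then held 2 lower, and 12.3% of all genes were called.

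Carbon and energy genes outside glycolysis held a few calls. PCK1, the first enzyme of gluconeogenesis, was at 1.92, 2.15, 1.99 and 1.3 CPM in D273-10B and at 9.03, 13.7, 9.46 and 9.68 CPM in CEN.PK2. The strains did not overlap, and PCK1 fell by 2.49 (SE 0.42, adjusted p 0.00104 by edgeR). With it fell the cytosolic malate dehydrogenase MDH2, by 1.82 (SE 0.46), and the dicarboxylate carrier DIC1, by 1.54 (SE 0.32), 3 of 28 genes of the TCA cycle, glyoxylate pathway and gluconeogenesis. None of the 28 was higher, against 2.94% of all genes higher and 2.66% lower, and the median was -0.16. Without D273-10B replicate 1, 8 were lower and 1 higher, against 4.77% and 7.53% of all genes. Among 46 nuclear genes of the respiratory complexes 1 was called, STF2, which stabilises the ATP synthase inhibitor complex. It was at 168, 786, 1454 and 1039 CPM against 132, 152, 201 and 286 CPM, with only replicate 1 of D273-10B within the CEN.PK2 range. STF2 rose by 2.18 (SE 0.61, adjusted p 0.0388 by edgeR).

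The 72 genes of the mitochondrial ribosome had a median log2 fold change of 0.32, against 0.11 over all genes tested, and 60 positive values. Of them 2 were called higher, MRP2 (1.44, SE 0.39) and MRPL15 (1.34, SE 0.37), and none lower, which is below the share among all genes. Without D273-10B replicate 1, 9 were higher and 1 lower, against 7.53% and 4.77% of all genes. The median was then 0.52, against 0.04 over all genes. The 139 genes of the cytosolic ribosome had a median of -0.09, and 0.23 without that library, with RPL4A and RPL4B called lower (-0.98, SE 0.26, and -1.23, SE 0.27). Reads of RPL4A and RPL4B are hard to separate, since 62.2% of their windows recur in the genome. The sum of the cytosolic ribosomal protein genes was lowest in D273-10B replicate 1, at 239149 CPM, and 422086 to 567018 CPM in the other 3 D273-10B libraries. In CEN.PK2 the sum also varied, at 406671, 318084, 436555 and 603389 CPM.

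Some genes of glycogen metabolism were among the rises. GSY2, a glycogen synthase, was at 55.9, 92.0, 64.1 and 37.6 CPM in D273-10B and at 9.38, 23.6, 22.9 and 8.80 CPM in CEN.PK2, without overlap. It rose by 2.01 on the log2 scale (SE 0.42, adjusted p 0.00636 by edgeR). PGM2, phosphoglucomutase, rose by 1.98 (SE 0.45), while GLG2, a glycogenin, fell by 1.27 (SE 0.35), 3 of 17 genes of trehalose and glycogen. The other 14 were not called, the median of the list was 0.37, and 5.61% of all genes were called. GPX2, a peroxidase, rose by 1.93 (SE 0.41), and of the drug exporters PDR5 rose by 1.17 (SE 0.29) and SNQ2 by 1.36 (SE 0.40). SNQ2 was not called without D273-10B replicate 1 (adjusted p 0.0687 by edgeR).

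Some cell wall genes were lower in D273-10B. CWP1, a mannoprotein linked to the wall, was at 3.55, 2.48, 2.08 and 2.93 CPM in D273-10B and at 181, 137, 107 and 156 CPM in CEN.PK2. The log2 fold change was -5.80 (SE 0.45, adjusted p 3.44e-08 by edgeR), and the call held in every alternative. The 12 libraries of the other strains had 285 to 3426 CPM, above both strains compared here. CCW14, another wall mannoprotein, fell by 1.72 (SE 0.30), and UTR2, a transglycosylase of chitin, by 2.40 (SE 0.54). These were 3 of 30 wall genes, against 2.66% of all genes lower, with none higher and a median of -0.35. Without D273-10B replicate 1, 7 were lower, against 4.77% of all genes. FLO11, the flocculin of invasive growth, was at 6.80, 9.42, 10.5 and 2.28 CPM against 29.6, 105, 33.9 and 13.3 CPM and fell by 2.42 (SE 0.51, adjusted p 0.00681 by edgeR). The other strains had at most 5.06 CPM of FLO11, so the level of CEN.PK2 was above all of them.

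Genes of daughter cell separation and anaerobic wall genes were mixed. SWI5, a factor of late mitosis and early G1, rose by 1.08 (SE 0.28), and DSE4, a glucanase of the daughter side, by 1.48 (SE 0.30), while the median of the 13 separation genes was -0.01. Among 25 tested DAN, TIR and PAU genes 5 were higher and 2 lower, against 5.61% of all genes called and 19.5% of those within 30 kb of a chromosome end. DAN4 rose by 2.85 (SE 0.54) and the near-identical PAU18 by 2.24 (SE 0.60), while TIR3 fell by 2.35 (SE 0.53) and TIR1 was lower, at 0.148 to 0.867 CPM against 2.29 to 4.21 CPM. All windows of PAU18 occur at a further locus, so its reads may belong to another PAU gene.

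Ion, phosphate and vitamin genes held large differences. PHO3, an acid phosphatase controlled by thiamine, was at 1.95 to 2.97 CPM in D273-10B and at 18.5 to 126 CPM in CEN.PK2. The lowest CEN.PK2 library was replicate 4, and the other strains had 131 to 621 CPM. PHO3 fell by 5.14 on the log2 scale (SE 0.49, adjusted p 5.12e-07 by edgeR) in a call that held in every alternative. The thiamine genes THI5, THI11 and THI12 fell by 1.90, 2.03 and 2.16 (SE 0.40, 0.35 and 0.36), but 60.1% to 73.8% of their windows occur elsewhere too, so they may count as 1 signal. In all, 5 of 26 thiamine and pyridoxine genes fell and none rose, against 2.66% of all genes lower. Of 22 phosphate genes 2 were higher and 3 lower, and the shares among all genes were 2.94% and 2.66%. The activator gene PHO4 fell by 1.53 (SE 0.33), the inhibitor gene PHO81 rose by 1.22 (SE 0.35), and GIT1, a transporter of glycerophosphoinositol, rose by 2.62 (SE 0.43). ZRT2, a zinc transporter, was lower, at 23.3 to 42 CPM against 25 to 148 CPM. Of 9 zinc genes 1 was higher and 1 lower, against 2.94% and 2.66% of all genes. The median log2 fold change of the 9 was 1.12, with 6 positive, and 0.69 without D273-10B replicate 1. ELO1, a fatty acid elongase, was at 51.6, 52.6, 34.2 and 65.9 CPM against 259, 318, 372 and 135 CPM and fell by 2.36 (SE 0.33, adjusted p 0.000119 by edgeR).

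The sodium pump genes ENA1, ENA2 and ENA5 are neighbours on chromosome IV (527422 to 538467) and all were higher in D273-10B. ENA2 was at 29.7, 18.7, 19 and 24.6 CPM in D273-10B and at 1.62, 5.34, 1.93 and 1.07 CPM in CEN.PK2. The log2 fold changes were 3.51 for ENA2 (SE 0.55, adjusted p 0.000404 by edgeR), 3.05 for ENA5 (SE 0.52) and 1.68 for ENA1 (SE 0.38). How reads divide among them is uncertain, since 86.9% to 99.3% of their windows occur more than once. The other 10 tested genes of sodium and potassium transport held no call.

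Differences clustered near chromosome ends. Of the tested genes with a position in the annotation, within 30 kb of an end, 66 of 338 tested genes (19.5%) were called, 31 higher and 35 lower, against 4.49% of 5416 genes farther inside. Apart from ENA, 3 stretches held at least 3 neighbouring genes called in 1 direction. On the left arm of chromosome X (16767 to 23729), IMA4, HXT9, YJL218W and REE1 were lower in D273-10B. REE1 was at 0, 0.0826, 0 and 0 CPM in D273-10B and at 74.6, 83.9, 85.4 and 116 CPM in CEN.PK2, at least 250-fold lower. YJL218W beside it had at most 2 counts in any D273-10B library and 9.53 to 15.2 CPM in CEN.PK2. Both were thus at the detection floor in all 4 D273-10B libraries. HXT9, a hexose transporter, was at 1.63 to 6.5 CPM and the isomaltase gene IMA4 at 3.1 to 4.72 CPM in D273-10B, but 53.6% and 100% of their windows occur at other loci. The next gene inward, IMA5, was higher, at 8.72, 2.40, 3.38 and 2.12 CPM against 0.558, 0.763, 0.560 and 0.628 CPM (log2 fold change 2.53, SE 0.53, adjusted p 0.00612 by edgeR). HXT8, the next after that, was lower by 1.93 (SE 0.55), a call lost without any 1 of the 8 libraries.

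On the right arm of chromosome III (309070 to 314981), ADH7, RDS1 and AAD3 were higher in D273-10B. ADH7, an alcohol dehydrogenase that uses NADPH, was at 13.0, 9.83, 9.45 and 7.65 CPM in D273-10B and at 0, 0, 0.0623 and 0.126 CPM in CEN.PK2. It was at least 14.2-fold higher. The 12 libraries of the other strains had 4.38 to 35.1 CPM, so it was in CEN.PK2 that the gene was close to absent. RDS1, a transcription factor of drug sensitivity, was higher by 4.25 (SE 0.38, adjusted p 3.23e-07 by edgeR), and AAD3, an aryl-alcohol dehydrogenase, by 3.53 (SE 0.53, adjusted p 0.000285 by edgeR). On the left arm of chromosome XVI (15053 to 19079), YPL278C, YPL277C and FDH2, a formate dehydrogenase, were higher by 2.81 (SE 0.46), 3.33 (SE 0.64) and 2.57 (SE 0.57). There D273-10B replicate 1 was the highest library, YPL277C being at 79.4, 7.77, 3.38 and 7.32 CPM against 1.01 to 4.58 CPM, and without it the YPL277C change was 1.84. Counts cannot tell the absence of a gene from a sequence so different that its reads did not align.

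Further large falls in D273-10B lay inside the chromosomes. SML1, an inhibitor of ribonucleotide reductase, was at 2.66, 3.22, 2.43 and 1.79 CPM in D273-10B and at 124, 332, 103 and 196 CPM in CEN.PK2. It fell by 6.18 on the log2 scale (SE 0.96, adjusted p 0.000404 by edgeR). The other strains ranged from 1.18 to 240 CPM, so low SML1 was not limited to D273-10B. COA3, an assembly factor of cytochrome c oxidase, was at 4.73, 6.11, 9.36 and 10.9 CPM against 72.3, 219, 93.9 and 178 CPM and fell by 4.12 (SE 0.53, adjusted p 4.47e-05 by edgeR). Every library of the other strains had at least 62.3 CPM, above all of D273-10B. RFU1, an inhibitor of a deubiquitinating enzyme, fell by 3.93 (SE 0.55), and RDT1, with at most 3 counts in any D273-10B library, was at least 37.0-fold lower.

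Some differences came from the CEN.PK2 side. CSS2 was at 9.90, 9.25, 8.58 and 10.3 CPM in D273-10B, at 220, 268, 227 and 124 CPM in CEN.PK2, and at 13.0 to 34.8 CPM in the other strains. It fell by 4.42 (SE 0.31, adjusted p 1.07e-08 by edgeR). PBI1 was at 0.651 to 1.33 CPM in D273-10B, 3.05 to 38.8 CPM in CEN.PK2 and a median of 0.807 CPM in the others, and MOR1 was at 23.7 to 54.2, 290 to 614 and 3.10 to 125 CPM. In these 3 genes CEN.PK2 lay above every other library. Among the rises, MNN14, related to mannose phosphorylation of cell wall proteins, was at 48.9, 19.7, 28.1 and 18.2 CPM in D273-10B, against 2.77 to 5.34 CPM in CEN.PK2 and 2.54 to 6.98 CPM in the others. It rose by 2.72 (SE 0.30, adjusted p 5.63e-06 by edgeR). FDC1, a decarboxylase of aromatic acids, was at 47.7, 75.4, 10.2 and 8.14 CPM in D273-10B and rose by 3.29 (SE 0.53), or by 2.45 without replicate 2, but the other strains had 18.2 to 49.8 CPM of it and CEN.PK2 1.45 to 6.10 CPM.

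Many genes of the iron regulon were highest in 1 library. Of its 29 genes, 18 had their highest level among the 8 libraries in D273-10B replicate 1. Another 5 were highest in D273-10B replicate 2, 5 in CEN.PK2 replicate 2 and 1 in CEN.PK2 replicate 4. FRE2 was at 344 CPM in D273-10B replicate 2 and at 5.47 CPM in replicate 1. How many of all genes were highest in D273-10B replicate 1 was not counted. FET3, the iron oxidase, was at 1511, 80.6, 51.9 and 48.0 CPM in D273-10B and at 60.2, 95.3, 19.7 and 8.99 CPM in CEN.PK2. SIT1, a siderophore transporter, was at 102, 2.56, 2.51 and 1.14 CPM against 1.26 to 6.10 CPM, and TIS11, a factor that degrades mRNAs of iron-using proteins, at 70.9, 3.55, 3.99 and 2.60 CPM against 2.68 to 4.51 CPM. Replicates 2 to 4 lay near or within the CEN.PK2 range for all 3, none of which passed the test (adjusted p 0.0519, 0.0573 and 0.101, edgeR); they were named after their values were seen. ARN1, another siderophore transporter, was called higher (3.46, SE 0.82, adjusted p 0.0165 by edgeR) at 262, 16.4, 17.1 and 6.84 CPM against 2.7 to 15.3 CPM, and not without replicate 1 (1.57, adjusted p 0.0625 by edgeR). The median log2 fold change of the 29 genes was 0.48, and -0.13 without that library. FRE6, a vacuolar iron reductase, was higher with it (1.52, SE 0.36) and without it (1.42), and ISU2, a scaffold for iron-sulfur clusters, was lower (-2.09, SE 0.36).

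Other genes stood high in D273-10B replicate 2. Counting genes with at least 10 CPM in 1 of the 8 libraries and at least 4 times the level of each of the other 7, there were 46 in D273-10B replicate 2, 18 in replicate 1, 4 in replicate 3, 4 in CEN.PK2 replicate 2, 1 in CEN.PK2 replicate 3 and 0 in the other 3 libraries. This count was chosen after the data were seen. HBT1, a substrate of the ubiquitin-like Hub1, was at 11.2, 700, 3.29 and 3.09 CPM in D273-10B and at 1.88, 12.2, 3.17 and 2.01 CPM in CEN.PK2. HUL4, a ubiquitin ligase homologue, was at 3.40, 246, 2.43 and 2.44 CPM against 0.763 to 2.14 CPM, and AYT1, an acetyltransferase, at 2.96, 74.7, 4.16 and 2.12 CPM against 0 to 0.809 CPM. All 3 were called higher, by 5.63 (SE 1.39), 5.10 (SE 1.20) and 5.47 (SE 0.98). HBT1 and HUL4 lost the call without that library or without CEN.PK2 replicate 1, and HBT1 also without CEN.PK2 replicate 3 or 4. AYT1 stayed higher without it, by 2.7 in place of 5.47.

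PRM2, a membrane protein of mating, was at 5.03, 96.0, 5.46 and 1.46 CPM against 1.63 to 4.58 CPM. RED1 was at 6.65, 75.3, 15.6 and 3.58 CPM against 2.29 to 6.91 CPM, and SWI6, a subunit of G1 transcription factors, at 32.7, 102, 24.9 and 15.6 CPM against 9.05 to 19.2 CPM. In each of these genes replicate 2 was the highest of the 8 libraries, and each call was lost without it. RED1 in replicate 3 and SWI6 in replicates 1 and 3 also lay above the CEN.PK2 range. STE20 was at 26.2, 91.0, 85.2 and 13.8 CPM against 10.3 to 22.8 CPM, so here replicate 3 was high as well.

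**Figure D4:**
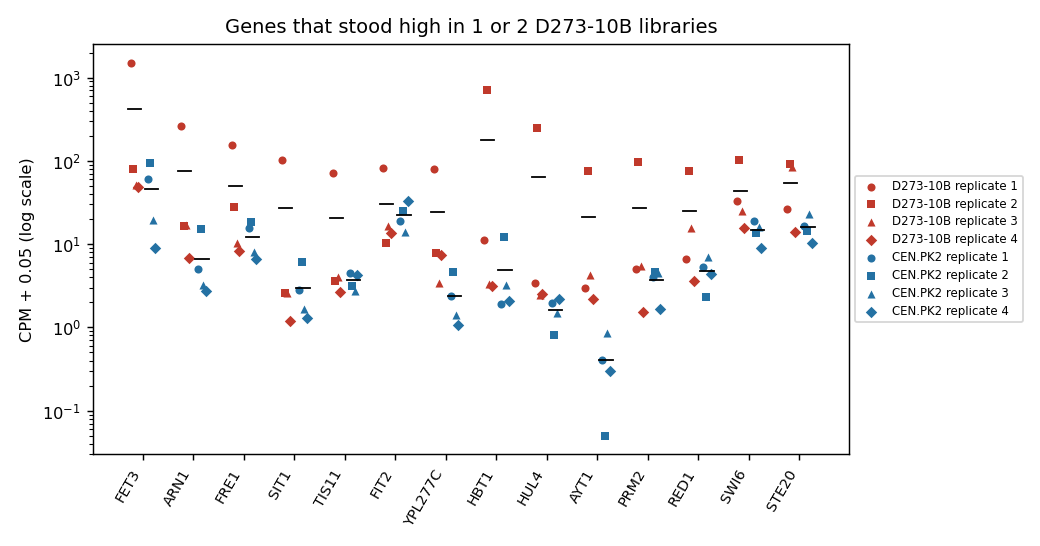
CPM plus 0.05 on a log scale (vertical axis) of genes that stood high in single D273-10B libraries (horizontal axis), chosen after their values were seen, with D273-10B in red, CEN.PK2 in blue, marker shape for the replicate and a bar for the mean of 4. FET3 to YPL277C were highest in D273-10B replicate 1 and HBT1 to STE20 in D273-10B replicate 2.

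Chromosome IX stood high in the same library. For each library the log2(CPM + 1) of every gene was taken relative to its median in the 12 libraries of the other strains, and the library's own median was set to 0. The 206 tested genes of chromosome IX then had medians of -0.18, 0.79, 0.56 and -0.03 in D273-10B and 0.03, -0.05, 0.22 and 0.16 in CEN.PK2. Replicates 2 and 3 of D273-10B were thus above all 6 other libraries, while replicates 1 and 4 were below 3 or more of the CEN.PK2 libraries. In the 12 other libraries the range was -0.08 to 0.04, but these set the reference and so lie near 0 by construction. CEN.PK2 replicates 3 and 4 and D273-10B replicate 1 also lay outside that range. In replicate 2 the genes above the library's median were 160 of 206 (77.7%), and 4 equal stretches of the chromosome had medians of 0.59, 1.03, 0.76 and 1.01, so the rise was spread along its length. In replicate 3 the stretches had 0.55, 0.63, 0.57 and 0.43. Chromosome XII had the next highest median in replicate 2, at 0.30, and 0.24 in replicate 3.

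Over the 2 strains, chromosome IX had a median log2 fold change of 0.37 and 16 genes called higher against 7 lower, which is 11.2% of its genes against 5.61% of all. Chromosome III had a larger share called, 11.9%. Without D273-10B replicate 2 it had 3 higher and 7 lower with a median of 0.18, without replicate 3 it had 7 higher, and without CEN.PK2 replicate 1, 3 or 4 it had 1, 8 or 5. Leaving out D273-10B replicate 1 or 4 gave 48 or 43 higher. The higher calls over all genes moved too, from 180 to 94 and 122 without D273-10B replicates 2 and 3, to 77, 122 and 110 without those of CEN.PK2, and to 467 and 355 without D273-10B replicates 1 and 4. The chromosome was singled out after its values were seen, and a cause was not tested.

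**Figure D5:**
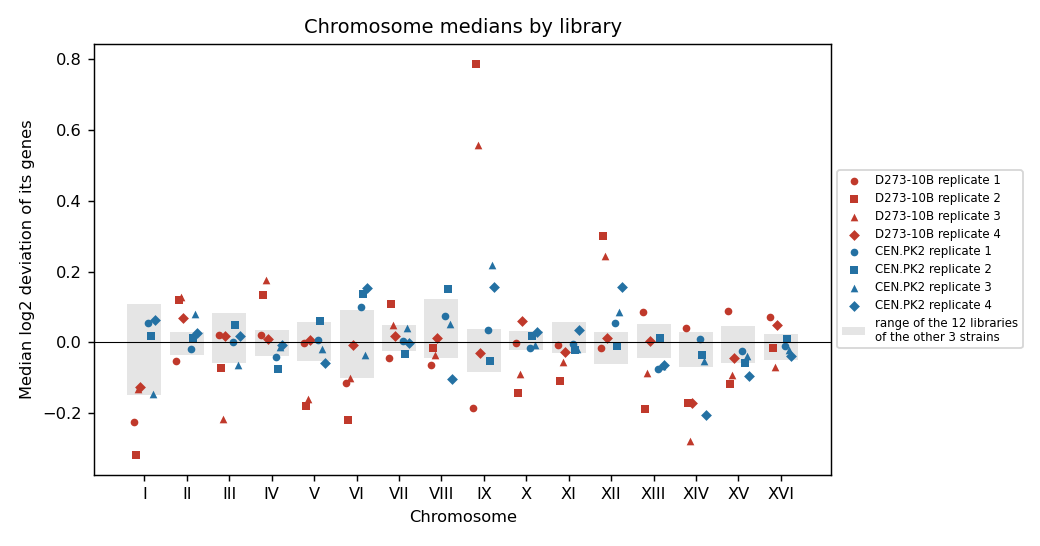
Median over the tested genes of each chromosome (horizontal axis) of the log2 deviation from the other strains (vertical axis), for each D273-10B library (red) and CEN.PK2 library (blue), with marker shape for the replicate and grey bars for the range of the 12 other libraries. The 12 libraries set the reference, so their range lies near 0 by construction. On chromosome IX, D273-10B replicates 2 and 3 stood at 0.79 and 0.56, above every other library.

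Within the libraries whose number starts with 69, 3 of D273-10B and 2 of CEN.PK2, 374 genes were called and all 331 main calls that could be tested there kept their sign. Of the 343, 157 were called again. The share of calls that were higher in D273-10B was 37.4% there and 52.5% over all libraries, so the balance of directions differed with the libraries used. The series numbered from 66 and from 74 held too few libraries of the strains for a test.

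Of the 105 called genes named above and chosen by rule, 71 kept the call in every fit that left out 1 of the 20 libraries and 34 did not. Among the 8 libraries of the 2 strains, ADH4, HIS2, PGM2, ENA1 and FDH2 lost the call without CEN.PK2 replicate 1, and DAL4 and PDR5 without CEN.PK2 replicate 4. HIS5, SWI5, FRE6, DAL1, MDH2, ADE6 and ARN1 lost it without any of 2 to 4 libraries, as did KAR4, MAL12, HUL4 and HBT1. STE20, PRM2, MAL32, ADE17, PHO81, GLG2, SWI6, RPL4A and MRP2 lost it without any of 5, and ADE1, STF2, PAU18, RED1 and MRPL15 without any of 6. SNQ2 lost it without any of 7 and HXT8 without any of the 8. Some calls were kept with a log2 fold change that moved by over 1.5 times in fold. Without CEN.PK2 replicate 4, MFA1 stood at -7.61, MFA2 at -7.07 and PBI1 at -4.05. Without D273-10B replicate 2, AGA2 stood at -5.90 and TIR3 at -3.43, and without D273-10B replicate 1 UTR2 stood at -3.12. Without CEN.PK2 replicate 3, ADH4 stood at 3.62 and AYT1 at 6.06. No called gene among the 105 changed sign in any alternative.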

How the data were processed

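Messenger RNA was sequenced in 20 libraries, 4 for each of 5 strains, by a full-length method (Smart-seq2) with transposase tagging and 75-base single reads, per the labels' protocols. The authors deposited whole-number read counts per gene for 7127 genes without normalization, under Ensembl identifiers per the file headers. STAR and Salmon are named in the submitters' processing notes. Their roles, the strand setting and the genome build are not given in the sources used here, and 0 columns were left unused. Without a strand setting, reads of overlapping or antisense genes cannot be told apart.

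The main test was that of edgeR 4.0.16 under R 4.3.3 (TMM scaling, filterByExpr by strain, quasi-likelihood test, strain as the only term, all 20 libraries, 15 residual degrees of freedom), with Benjamini-Hochberg adjustment over 6119 genes at 0.05. DESeq2 1.42.0, other filters, a replicate block, length corrections and leaving out each library were alternatives. The test was tried on simulated data. A gene absent from a library has a floor of 3 counts, which was 0.152 to 2.29 CPM. Floors cover counting error only, and reads carry no molecular identifiers. Names, positions and upstream sequences are from the RefSeq R64 annotation.

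The compared strains, members and gene lists were chosen with earlier results of these data known. Genes were named by rule: all members of the a-specific, alpha-specific and genotype lists, the 12 largest rises and 12 largest falls with libraries that did not overlap, at least 2-fold change and at least 10 CPM, up to 4 called members of each other list, genes at the floor in 1 strain, and runs of 3 or more called neighbours. Not every gene so chosen is described.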

Additional observations from a re-analysis of the deposited data

Results flagged for a closer look

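A library was set apart when its gap to the nearest other library of its strain took up most of the strain's whole range, past the 95% critical value of Dixon's test. This held in 31 of 230 groups of 4 libraries (13.5%). The critical value flags about 1 in 20 groups of normally distributed values. CPM is skewed to high values and the genes were chosen from these data, so the share cannot be set against that rate. D273-10B replicate 1 was the high library 10 times. It held 262 CPM of ARN1, 129 of SAG1, 93.0 of DSE4, 79.4 of YPL277C, 29.6 of GIT1, 26.5 of YPL278C, 14.0 of RDS1, 7.09 of GAT1, 6.5 of HXT9 and 5.03 of FDH2. D273-10B replicate 2 was high 8 times, with 700.1 CPM of HBT1, 246 of HUL4, 96.0 of PRM2, 75.3 of RED1 and 74.7 of AYT1. Its 0.165 CPM of HMRA1 and YJL218W and 0.0826 of REE1 are single or paired reads against 0 in the other 3. It was low for MOR1, at 23.7 CPM.

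CEN.PK2 replicate 2, the smallest library, was high 7 times, at 14.5 CPM of HIS5, 13.7 of HXT9 and PCK1, 12.2 of HBT1, 6.10 of DAN4 and GIT1 and 2.29 of FDH2. CEN.PK2 replicate 4 was high for MATALPHA2 at 56.9 CPM and THI5 at 15.1 CPM. CEN.PK2 replicate 3 had 0.0623 CPM of HMLALPHA1 and MATALPHA1 against 0 in the other 3, and the lowest MOR1, at 290 CPM.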

How the results depend on the processing

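The count of 343 genes moved by over 1.5 times under several choices, and the cause was not tested. DESeq2 as the test called 595. A minimum mean of 10 CPM, which tests fewer genes, called 202. Fitting the 2 strains alone, with fewer samples, called 103, and 170 when D273-10B replicate 1 was also left out. Thinning all libraries to the depth of the smallest called 45, of which 37.8% were higher. A gene length correction called 562, length with GC content 551, and length without D273-10B replicate 1, chosen after seeing the data, 1065. Leaving out 1 library at a time gave 192 (without CEN.PK2 replicate 1) to 763 (without D273-10B replicate 1), and fits without 1 library of another strain gave 298 to 422. DESeq2's size factors (344), no filter (369) and the library number series as a block (306) stayed within 1.5 times. Of the genes named, MAL31, which did not pass the test, turned sign with the series block (-0.0605), in the libraries numbered from 69 (-0.11) and without CEN.PK2 replicate 4 (-0.0244), and leaving out 1 library gave it -0.0244 to 0.562.

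Replicate numbers did not pair the samples: deviations of same-numbered libraries correlated at 0.37, -0.23, 0.04 and 0.32 across genes. With the replicate number as a block 239 genes were called, 91 in the 2 strains alone, and 418 with length correction. The smallest library, CEN.PK2 replicate 2 with 1311322 counts, sets a floor of 2.29 CPM for low genes.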

Other observations

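STE5, the scaffold of the pheromone kinase cascade (chromosome IV, 658350 to 661103), was chosen after its values were seen. It was at 4324, 39990, 96.6 and 6562 CPM in D273-10B and at 9107, 19.8, 15303 and 9882 CPM in CEN.PK2. In D273-10B replicate 2 it held 4.00% of all counts. The libraries of each strain thus spanned a wide range, and the strains did not differ by the test (log2 fold change 0.44, SE 1.52, adjusted p 0.912 by edgeR). One library of W303, replicate 1, was at 8216 CPM, and the other 11 libraries of the remaining strains were at 23.8 to 48.5 CPM.

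Sites of the general amino acid control factor Gcn4 (TGACTC) were found within 500 bases upstream of 11 of 14 genes of leucine, isoleucine and valine synthesis, and of 12.7% of all protein-coding genes. The iron factor core TGCACCC was found upstream of 21 of 29 iron regulon genes and of 140 of 6000 genes (2.33%).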
